A study of Mus musculus with 6 samples.

Results

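The expression of 10 circadian clock genes (Per1, Per2, Per3, Cry1, Cry2, Nr1d1, Nr1d2, Dbp, Tef and Clock) was compared between Ptch1-ablated and control keratocytes, to ask whether the groups differed in clock phase. The genes were chosen by symbol, all 10 of them were among the 17606 genes measured, and all 10 had enough counts to be among the 13888 genes tested. Bulk RNA-seq had been carried out on corneal stromal cells sorted by FACS as keratocytes, with 3 libraries per group. The Ptch1-ablated group came from Prrx1-creERT;Ptch1 mice, in which tamoxifen activates a Cre recombinase expressed from Prrx1 to delete floxed Ptch1, the receptor that restrains Hedgehog signaling. Per the study, the floxed Ptch1 line had been crossed onto C57BL/6, and the creERT is a knock-in at Prrx1 whose strain is not stated. This driver also recombines in corneal endothelial cells according to the same source, and both sexes were used. The control group is called WT or ctrl in the labels, which do not give its alleles or say whether it carries the Cre. Both groups were given as 10 weeks old, received 3 doses of tamoxifen and were sampled after 1 month. By the age at tamoxifen in the study, mice would be older than 10 weeks after 1 month, a conflict not resolved here. Neither the hour of tissue collection nor the light schedule is given in the sources used here, so each library is a single snapshot of the clock at an unstated time.

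The clock is a transcriptional feedback loop that runs in nearly every cell. Clock, or its paralog Npas2, pairs with Arntl (also known as Bmal1) and activates the Per, Cry and Nr1d genes through E-box sequences. The Per and Cry proteins then block this activation, and the nuclear receptors encoded by Nr1d1 and Nr1d2 (REV-ERB alpha and beta) repress Arntl. The bZIP factors Dbp, Tef and Hlf carry the rhythm to downstream genes through D-box sequences. In mouse peripheral tissues, transcripts of Nr1d1 and Dbp peak during the day, those of the Per genes toward dusk, Cry1 at night and Arntl and Npas2 near dawn. A shift in phase can therefore move these genes in opposite directions.

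The sequences through which the loop acts were read from the 250 bases before the annotated starts of these genes (RefSeq, GRCm38.p6). Promoters were found for 9 of the 10 genes, and that of Per2 was not available, so Per2 was not searched. The matches are shown because E-boxes and D-boxes are the elements through which the loop is known to act, and Nr1d2, Dbp and Clock held none of those searched for in this window. An E-box (CACGTG, the same on both strands) was present before Per1, Cry1 and Tef. It was at both annotated starts of Tef but only at the first annotated start of Per1. Of all genes with a promoter, 6.86% held an E-box in this window. In the following lines the matched element is in capitals and each run reads along the strand of the gene.
Per1 E-box: acccaagtcCACGTGcagggatgt
Cry1 E-box: gccggtggtCACGTGgggtgcatg
Tef E-box, first start: ctgtggctcCACGTGctgcagctg
Tef E-box, second start: ctggcccagCACGTGtctacatcg
These windows lie at chr11:69098774-69098797 on the plus strand, chr10:85185100-85185123 on the minus strand, and chr15:81802537-81802560 and chr15:81811267-81811290 on the plus strand. A variant E-box (CACGTT, or AACGTG on the other strand) was found before Cry1, Cry2 and Nr1d1, against 4.50% of all genes.
Cry2 E-box variant: catggtgggAACGTGagggggcgg
Nr1d1 E-box variant: acagatctcAACGTGccggctgct
Their positions were chr2:92434221-92434244 and chr11:98775391-98775414, both on the minus strand. Per3 held 2 copies of a D-box (TTATGTAA, or TTACATAA on the other strand), which 0.977% of all genes held.
Per3 D-box, distal: acccgcgcgTTATGTAAggtactcgg
Per3 D-box, proximal: cgcccgcggTTATGTAAcccccgccg
These copies lay at chr4:151044854-151044879 and chr4:151044807-151044832 on the minus strand. None of the 9 promoters held TAGGTCA, a core of the element bound by ROR and REV-ERB proteins, or the cAMP response element TGACGTCA, on either strand, while 2.55% and 1.77% of all genes did. Matched letters describe the window and do not show that a factor bound there.

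Library totals ranged from 20258414 to 24788039 counts. Ptch1 itself, the targeted gene, was higher in the ablated libraries (4348 to 6230 against 104 to 369 counts), and a count over the whole gene cannot show which exons were deleted. Hhip, a Hedgehog target, had 12 to 31 counts in controls and 23979 to 26893 in ablated libraries. The 8 keratocyte markers summed to 102928 to 118712 TPM (a level corrected for gene length and library size) in controls and 79924 to 95958 TPM in ablated libraries, groups that did not overlap, and Ptgds among them was at 0 to 39 counts and was not tested. Control replicate 1 and ablated replicate 2 stood apart from the other libraries on the second principal component, which held 22.2% of the variance, so the main counts are also given without them.

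None of the 10 clock genes passed an adjusted p of 0.05 (edgeR quasi-likelihood test, Benjamini-Hochberg adjustment over all genes tested), either higher or lower in Ptch1-ablated keratocytes. Across all genes tested, 8.48% passed, 4.68% being higher and 3.8% lower, and 5.49% also changed by at least 2-fold. At an unadjusted p under 0.05 there were 3 clock genes (Nr1d1, Nr1d2 and Tef), against 20.6% of all genes. The median log2 fold change (Ptch1-ablated over control) was -0.050 over the 10 clock genes, 5 being above and 5 below 0, and 0.0046 over all genes. The 95% intervals of 9 of the 10 genes lay within a 2-fold change in either direction, and only that of Per2 reached below it. Without the 2 libraries that stood apart, an alternative chosen after seeing the data, the count was again 0.

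This count depended on the test and on how the libraries were scaled. DESeq2 called 1 clock gene, Nr1d1 (log2 fold change 0.34, adjusted p = 0.0265), against 12.5% of all genes. With libraries scaled by their totals only, 2 were called, Nr1d1 and Nr1d2 (10.2% of all genes), and limma called the same 2 from log2(TPM + 1) (11.7%) and from log2(TPM + 0.1) (10.3%). In these last 3 fits the median of all genes was itself shifted upward, by 0.17, 0.19 and 0.22 on the log2 scale. The share of all passing genes that were higher was 55.2% in the edgeR fit, against 72.6%, 72.8% and 72.8% in those 3. Measured from the median of all genes, Nr1d1 was higher by 0.33 in the edgeR fit and by 0.33, 0.35 and 0.32 in those 3.

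**Figure D1:**
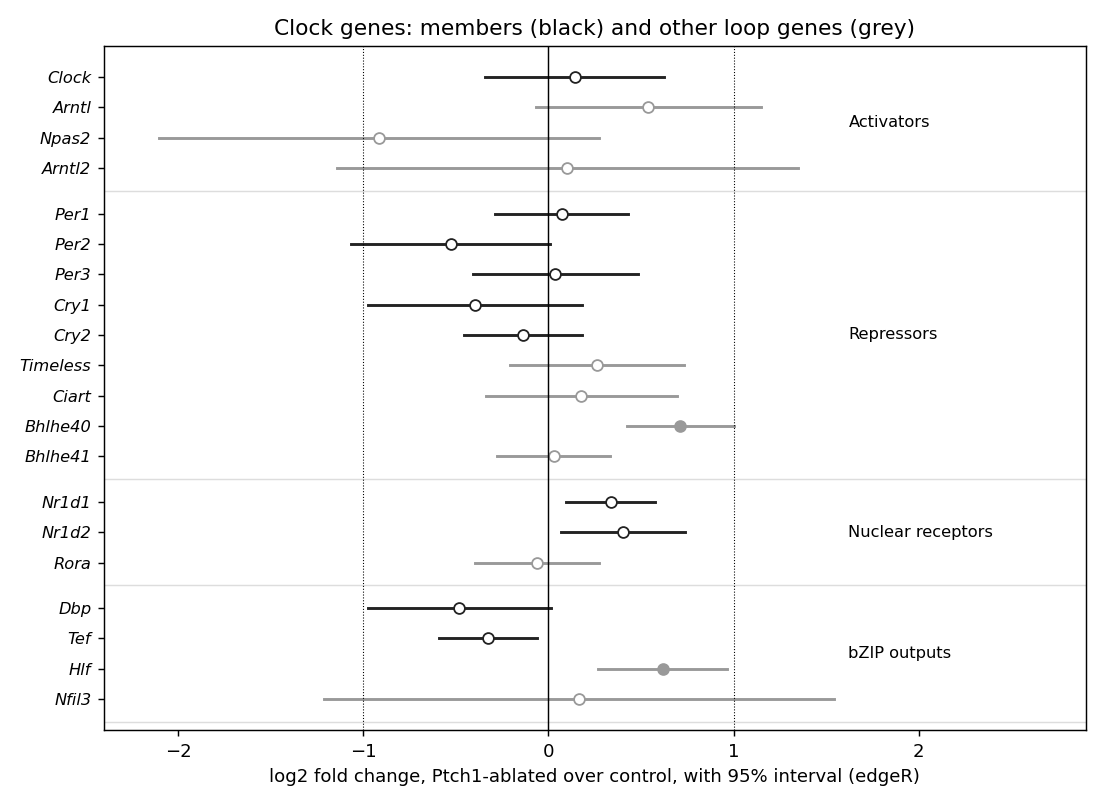
Log2 fold change of clock genes, Ptch1-ablated over control (x axis), with its 95% interval from edgeR, for the 10 clock genes (black) and 10 other genes of the loop (grey), grouped by role. Filled points passed an adjusted p of 0.05, which applied to Bhlhe40 and Hlf alone, and dotted lines mark a 2-fold change. Timeless is placed with the repressors for display only.

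The levels of the 10 genes spanned a wide range, and their order was nearly the same in both groups. On the TPM scale Nr1d1 was by far the highest, with a control mean of 1247 ± 27.2 and an ablated mean of 1827 ± 238 (SD over 3 libraries each), above 99.4% of the tested genes in controls. Tef came next at 169 ± 8.89 and 158 ± 12.5 TPM. In controls these were followed by Dbp (97.2 TPM), Cry2 (79.0), Nr1d2 (62.6), Per3 (55.6) and Per1 (47.8), each a mean level over 3 libraries. Neighbours within this run from Dbp to Per1 had overlapping ranges. Per2 (18.0 TPM) and Cry1 (17.1) overlapped as well, and Clock was lowest at 10.4 TPM. In ablated libraries Nr1d2 (96.1 TPM) stood above Cry2 (83.1) and Dbp (79.4), again with overlapping ranges between neighbours, and so did Cry1 (15.1), Per2 (14.4) and Clock (13.4). Arntl, the partner of Clock, had mean levels of 8.95 ± 4.75 and 16.6 ± 3.08 TPM (SD over 3 libraries each), so Nr1d1 was far above Arntl in every library.

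**Figure D2:**
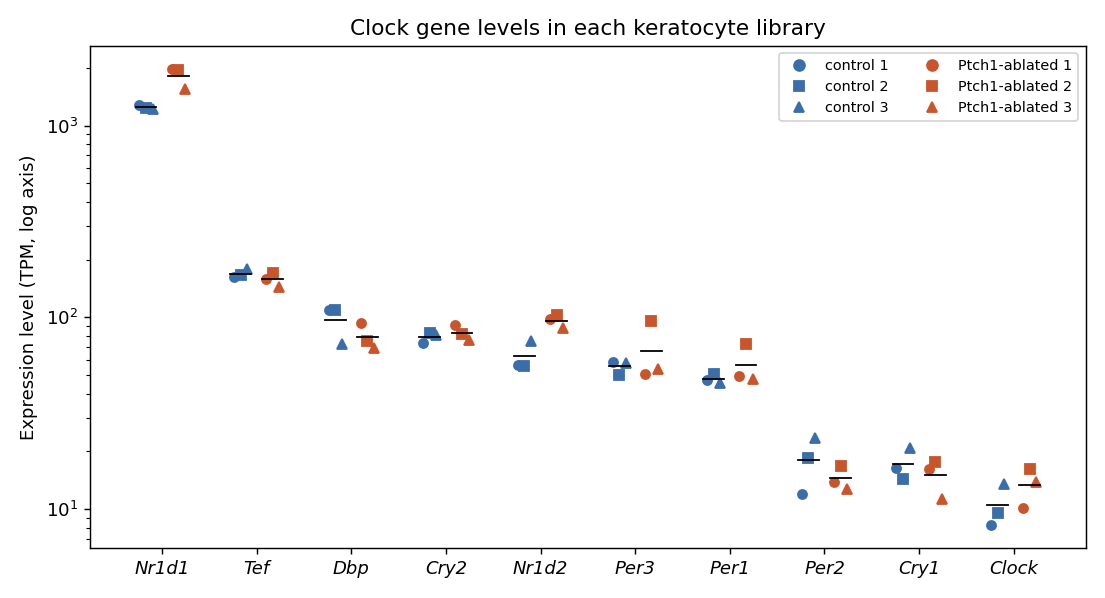
Level of each of the 10 clock genes in each library (TPM, log axis), with symbols for the replicate and a bar at the group mean. Nr1d1 is at 1222 TPM or more in all 6 libraries, and the groups overlap for most genes.

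In what follows the log2 difference of a gene is its fitted log2 fold change, Ptch1-ablated over control. The activator Clock did not pass the test. It was measured at 40.1, 45.4 and 57.6 CPM (counts relative to the scaled library total) in control replicates 1 to 3 and at 40.8, 61.4 and 55.6 CPM in ablated replicates 1 to 3. The 2 groups overlapped, with the lowest values in replicate 1 of each group. The log2 difference was 0.14 ± 0.22 (SE, adjusted p = 0.798 by edgeR), and it was -0.097 without the 2 libraries that stood apart. Arntl had 12.8, 16.8 and 19.5 CPM in controls and 18.5, 25.4 and 27.5 CPM in ablated libraries. Ablated replicate 1 fell below control replicate 3, so the groups overlapped here too, and the log2 difference of 0.54 ± 0.28 (SE, adjusted p = 0.311 by edgeR) did not pass. For Arntl the count per TPM varied by 2.23-fold among libraries, being highest in control replicate 1, whereas it varied by at most 1.10-fold for the 10 clock genes. Its TPM values are therefore less comparable between libraries than its counts. Npas2, the paralog of Clock, did not overlap between groups, with 5.30 to 8.21 CPM in controls and 1.77 to 4.65 CPM in ablated libraries. Its log2 difference was -0.91 ± 0.54 (SE, adjusted p = 0.393 by edgeR). Arntl2 was low in both groups, at 3.47 to 4.68 and 3.41 to 5.52 CPM (adjusted p = 0.955 by edgeR).

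None of the Per genes, which encode the PERIOD repressors, passed the test. Per1 was at 121, 131 and 114 CPM in controls and 118, 154 and 113 CPM in ablated libraries. The groups overlapped, with the highest value in ablated replicate 2, and the log2 difference was 0.071 ± 0.16 (SE, adjusted p = 0.875 by edgeR). Without ablated replicate 2 it was -0.076. Per3 showed the same high library, with 171, 145 and 163 CPM in controls and 127, 224 and 140.1 CPM in ablated libraries. Its log2 difference was 0.038 ± 0.20 (SE, adjusted p = 0.953 by edgeR), and without ablated replicate 2 it was -0.25, with an edgeR adjusted p of 0.495. Per2 was at 34.1, 52.3 and 64.7 CPM in controls and 33.9, 38.7 and 32.2 CPM in ablated libraries. Control replicate 1 lay within the ablated range, while control replicates 2 and 3 were above all of them. The log2 difference was -0.53 ± 0.25 (SE, 95% interval -1.06 to 0.0088, adjusted p = 0.251 by edgeR). Its size depended on the controls kept, being -0.74 without control replicate 1, -0.31 without control replicate 3 and -0.83 without the 2 libraries that stood apart (adjusted p = 0.0642, 0.563 and 0.0544 by edgeR). With libraries scaled by totals only it was -0.35, and limma on log2(TPM + 1) gave -0.26.

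The cryptochrome genes, whose products repress Clock and Arntl most directly, had lower mean CPM in ablated libraries without passing the test. Cry1 was at 23.3, 20.4 and 28.3 CPM in controls and 20.04, 20.2 and 14.4 CPM in ablated libraries. The groups did not overlap, but only by 20.4 against 20.2 CPM, and on the TPM scale they overlapped. The log2 difference was -0.40 ± 0.26 (SE, adjusted p = 0.453 by edgeR). Cry2 was steadier, with 141, 158 and 149 CPM in controls and 151, 127 and 129 CPM in ablated libraries. Its groups overlapped, with a log2 difference of -0.14 ± 0.15 (SE, adjusted p = 0.671 by edgeR), which became 0.030 with libraries scaled by totals only.

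Other repressors of the loop, and Timeless, were compared next. Bhlhe40 (also known as Dec1), which competes for E-boxes, rose from 285, 358 and 345 CPM in controls to 573, 502 and 545 CPM in ablated libraries. Every ablated library was above every control library, and the log2 difference was 0.71 ± 0.13 (SE, adjusted p = 0.00495 by edgeR). It passed in all 16 alternatives. Its paralog Bhlhe41 was at 218 ± 9.21 and 222 ± 26.1 CPM (SD over 3 libraries each), with a log2 difference of 0.029 ± 0.14 (SE, adjusted p = 0.948 by edgeR) that was -0.049 without ablated replicate 2. Ciart was at 31.9 to 48.5 CPM in controls and 34.0 to 51.0 CPM in ablated libraries (adjusted p = 0.754 by edgeR). Timeless, whose fly relative is a clock gene, was at 26.8 ± 1.07 and 32.2 ± 3.39 CPM (SD over 3 libraries), groups that did not overlap, with a log2 difference of 0.26 ± 0.21 (SE, adjusted p = 0.560 by edgeR).

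Both REV-ERB genes had higher values in every ablated library than in any control library. Nr1d1 was at 1642, 1595 and 1513 CPM in controls and 2202, 2016 and 1776 CPM in ablated libraries. The groups were separated by 1642 against 1776 CPM, and the log2 difference was 0.34 ± 0.11 (SE, 95% interval 0.095 to 0.58, adjusted p = 0.0910 by edgeR). Over the alternatives, the adjusted p ran from 0.0110 to 0.262. Nr1d2 was at 126, 124 and 162 CPM in controls and 186, 186 and 172 CPM in ablated libraries. Control replicate 3 came closest to the ablated group, and the log2 difference was 0.40 ± 0.15 (SE, 95% interval 0.067 to 0.74, adjusted p = 0.152 by edgeR). Nr1d1 overlaps Thra on the opposite strand by 1075 bases (GENCODE, GRCm38), and since strandedness is not stated their reads in this stretch cannot be told apart. Thra was at 49.4 to 65.3 TPM in controls and 43.3 to 56.9 TPM in ablated libraries, far below Nr1d1. In all, the groups did not overlap in 4 of the 10 clock genes (Nr1d1, Nr1d2, Cry1 and Tef) on the CPM scale, as was the case for 27.4% of all genes tested, and of these Cry1 and Tef overlapped on the TPM scale.

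The ROR receptors activate Arntl at the sites where REV-ERB proteins repress it. Rora was abundant, at 562 ± 79.0 and 538 ± 92.4 CPM (SD over 3 libraries each), with a log2 difference of -0.061 ± 0.15 (SE, adjusted p = 0.887 by edgeR) that was 0.037 without control replicate 3. Rorb had too few counts to be tested, at 0 to 2 counts in controls and 0 to 15 in ablated libraries.

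The bZIP output genes had values in both directions. Dbp was at 68.5, 67.8 and 44.1 CPM in controls and 51.8, 38.8 and 38.6 CPM in ablated libraries. Control replicate 3 lay within the ablated range, and the log2 difference was -0.48 ± 0.23 (SE, 95% interval -0.98 to 0.013, adjusted p = 0.257 by edgeR). Tef was lower in every ablated library, with 333, 335 and 351 CPM in controls and 277, 276 and 261 CPM in ablated libraries. Its log2 difference was -0.32 ± 0.12 (SE, 95% interval -0.59 to -0.061, adjusted p = 0.140 by edgeR). On the TPM scale its groups overlapped, and limma on log2(TPM + 1) gave a difference of -0.098. Hlf rose, from 70.4, 79.5 and 70.4 CPM in controls to 101, 119 and 118 CPM in ablated libraries. Every ablated library was above every control library, and the log2 difference was 0.62 ± 0.16 (SE, adjusted p = 0.0320 by edgeR). This call was lost without control replicate 1 (adjusted p = 0.0870 by edgeR), 2 (0.0755) or 3 (0.0936), without ablated replicate 2 (0.0940) or 3 (0.115), and without the 2 libraries that stood apart (0.136). It was also lost with the replicate number as a block (adjusted p = 0.0615 by edgeR). The log2 difference itself was 0.54 to 0.68 in these fits. Nfil3, which opposes these activators at D-boxes, was low at 2.58 to 4.41 CPM in controls and 2.76 to 5.31 CPM in ablated libraries (adjusted p = 0.932 by edgeR). Dbp overlaps Sphk2 on the opposite strand by 737 bases (GENCODE, GRCm38), and Sphk2 was at 21.9 to 28.2 TPM in controls and 25.5 to 53.6 TPM in ablated libraries, and the reads of this stretch cannot be assigned to either gene. Of the 11 other loop genes tested, 2 passed, against 8.48% of all genes tested. Both were higher in ablated libraries, at a fold of 1.64 for Bhlhe40 and 1.53 for Hlf. The groups did not overlap in CPM for 4 of the 11, against 27.4% of all genes tested.

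**Figure D3:**
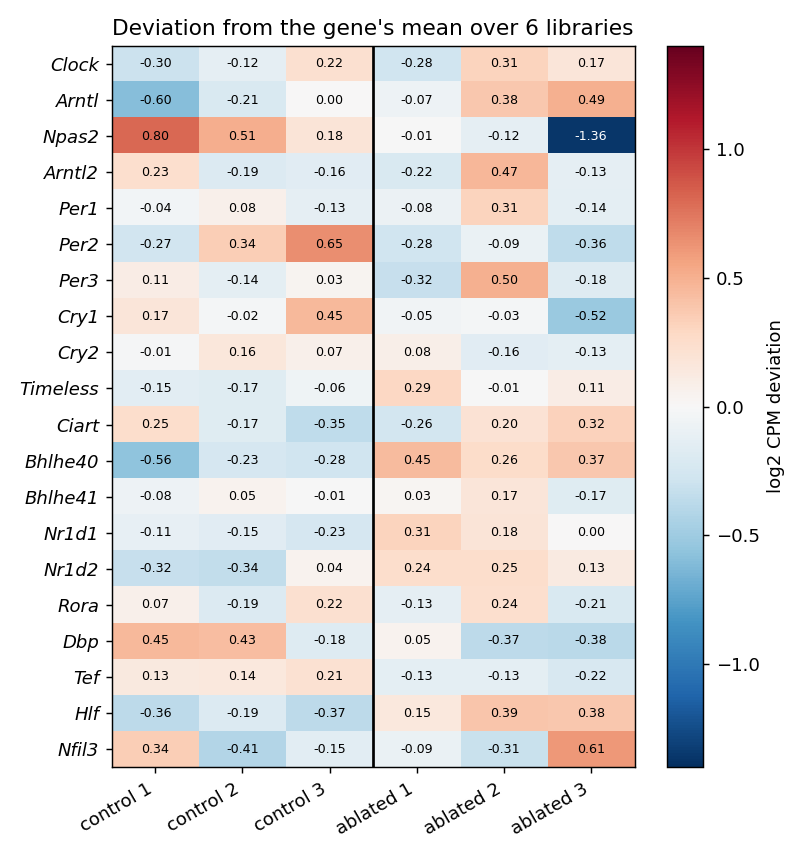
Deviation of each gene from its own mean over the 6 libraries (log2 CPM, with values printed), for the 10 clock genes and 10 other loop genes. The black line separates control from Ptch1-ablated libraries. Tef is above and Hlf below its mean in all 3 control libraries, with the reverse in all 3 ablated libraries.

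Phase was then described within each library, by the log2 ratio of a day or dusk gene to a night or dawn gene. At a single unstated time, this ratio cannot tell a shift in phase from a change in the level of either gene. Such a ratio does not depend on how libraries are scaled. It is given from TPM (with 0.1 added) and, as an alternative chosen after seeing the data, from counts. Nr1d1 over Arntl was 8.39, 6.91 and 6.55 on the log2 scale of TPM in controls and 7.15, 6.92 and 6.28 in ablated libraries. These ranges overlapped, and the ablated mean was lower by less than the spread of the controls, with a difference of -0.50 from TPM and -0.21 from counts. Dbp over Arntl overlapped between groups as well, with a difference of -1.32 from TPM and -1.01 from counts. Per3 over Arntl overlapped, with a difference of -0.84 and -0.54. Dbp over Cry1 hardly differed, at 2.49 ± 0.598 and 2.40 ± 0.277 (SD over 3 libraries, log2 of TPM). Per2 over Arntl was the ratio whose groups did not overlap. It was 1.67, 0.845 and 0.860 in controls and -0.0010, 0.0770 and -0.643 in ablated libraries from TPM, with a difference of -1.31, and -1.02 from counts. Every ablated library was below every control library on both scales. Control replicate 1, whose Arntl TPM was out of proportion to its count, decided several of these values. Without it the differences from TPM were 0.054 for Nr1d1 over Arntl, -0.69 for Dbp over Arntl, -0.26 for Per3 over Arntl and -1.04 for Per2 over Arntl. The small difference of Dbp over Cry1 ran from -0.43 without control replicate 3 to 0.14 without control replicate 2. Of the 5 ratios 4 share Arntl, and 3 libraries against 3 cannot reach an exact p below 0.1, so none was tested.

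Within each group, Nr1d1 and Dbp ran opposite to Arntl on the CPM scale, while the other clock genes did not do so in both groups. This pattern was noticed after the values were seen. In controls Arntl was lowest in replicate 1 and highest in replicate 3, and Nr1d1 and Dbp were highest in replicate 1 and lowest in replicate 3. In ablated libraries Arntl was again lowest in replicate 1 and highest in replicate 3, with Nr1d1 and Dbp in the reverse order. For Dbp some of these steps were small, such as 38.8 against 38.6 CPM in ablated replicates 2 and 3. The order of libraries was the reverse of that of Arntl in both groups for 2 of the 10 clock genes on the CPM scale, and for 2.92% of all other genes tested. On the TPM scale this held for Nr1d1 alone, since Dbp was at 109.2 and 109.6 TPM in control replicates 1 and 2. Between groups Nr1d1 and Arntl did not run opposite, as the ablated means of both were above the control means. Clock followed the order of Arntl in controls but not in ablated libraries, as did Per2. On the CPM scale Tef followed it in controls and ran opposite in ablated libraries, and Ciart did the reverse. Neither order was seen in either group for Per1, Per3, Cry1, Cry2 and Nr1d2 on that scale. Npas2, described above as peaking near dawn like Arntl, ran opposite to Arntl in both groups.

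**Figure D4:**
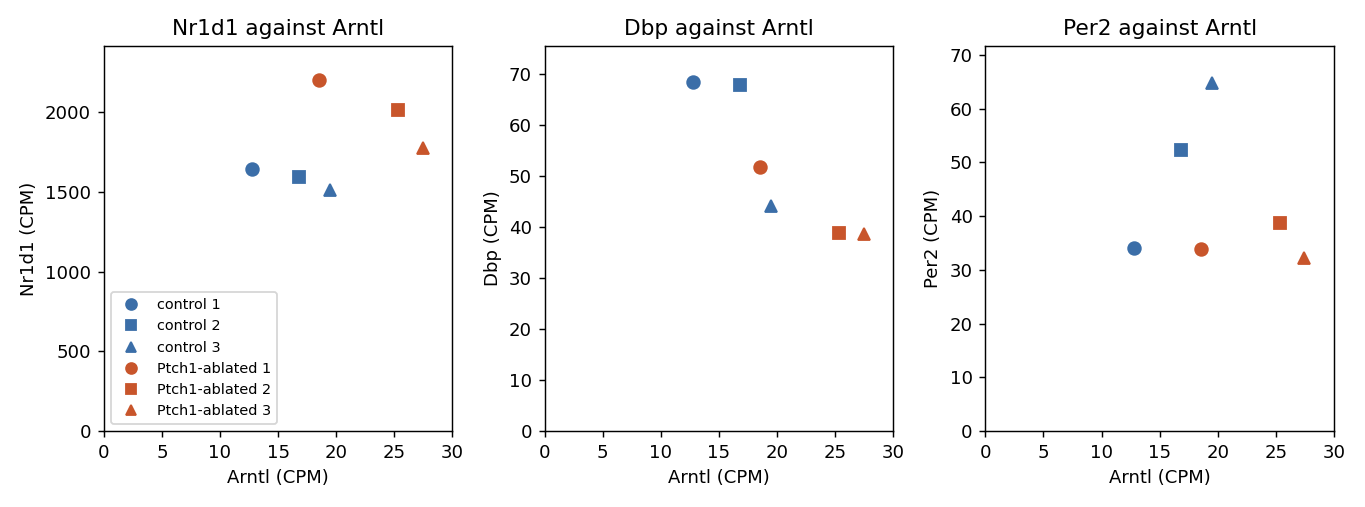
Nr1d1, Dbp and Per2 (y axes, CPM) against Arntl (x axis, CPM) in each of the 6 libraries, with colours for the group and symbols for the replicate. Within each group Nr1d1 and Dbp are lower where Arntl is higher, while the ablated libraries as a set lie higher for Nr1d1.

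The spread of the clock genes among replicates was mostly below that of other genes. In controls 8 of the 10 had a coefficient of variation in TPM below the median of all tested genes (23.6%), and in ablated libraries 7 of the 10 did (22.3%). Nr1d1 varied by 2.18% in controls and 13.0% in ablated libraries, whereas Per2 varied by 32.4% in controls and Per3 by 37.2% in ablated libraries. Of the 10 genes, 9 had levels above the median tested gene, and the part of level in this spread was not tested. The 5 genes outside the loop whose log2 CPM correlated best with that of Dbp over the 6 libraries were Znhit2 (Pearson's r = 0.996), Prdx3 (0.985), Fth1 (0.979), Mrps7 (0.979) and Akt1s1 (0.976). Of 9218 genes compared, 32 had an r over 0.95, and with 6 libraries these values are a description only.

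Genes that act on clock proteins were compared with the loop itself. For this list and those that follow, the shares over all genes tested were 4.68% higher and 3.8% lower. Of 18 clock protein modifiers tested, 1 was higher, 0 were lower and 17 did not pass, with a median log2 difference of 0.11. The gene that passed was Usp2, a deubiquitinase whose transcript is itself rhythmic in many tissues. It rose from 17.8 ± 2.67 to 44.5 ± 9.06 CPM (SD over 3 libraries), a log2 difference of 1.33 ± 0.24 (SE, adjusted p = 0.00446 by edgeR). The casein kinases that mark PERIOD proteins for degradation did not pass, with log2 differences of 0.19 for Csnk1d (adjusted p = 0.551 by edgeR) and 0.19 for Csnk1e (0.743).

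Among 19 genes known as rhythmic outputs, 2 were higher, 2 were lower and 15 did not pass, with a median log2 difference of -0.050. Nampt, the enzyme of NAD salvage driven by E-boxes, rose from 94.6 ± 6.52 to 285 ± 43.4 CPM (SD over 3 libraries), a log2 difference of 1.59 ± 0.16 (SE, adjusted p = 4.17e-05 by edgeR). Cdkn1a, the cell cycle inhibitor p21, rose as well (1.36 ± 0.15, SE, adjusted p = 8.11e-05 by edgeR). The genes that fell were Tsc22d3 (log2 difference -0.54, adjusted p = 0.0429 by edgeR) and Fkbp5 (-2.12, 0.0362). Both are also on the glucocorticoid list below and are counted again there. Wee1, the mitotic kinase with E-boxes in its promoter, did not pass (-0.88, 0.112).

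Stimuli that reset the clock act on the Per genes directly, so lists of their responses were set beside Per1 and Per2. Of 20 immediate early genes, 10 were higher, 0 were lower and 10 did not pass, with a median log2 difference of 0.58 and all 20 point estimates above 0. Their 4 smallest p belonged to Jun (1.45 ± 0.13), Myc (2.14 ± 0.21), Fosb (1.18 ± 0.13) and Fos (0.86 ± 0.10), given as log2 differences ± SE, at adjusted p of 2.17e-05, 4.24e-05, 0.000107 and 0.000172 by edgeR. Of 13 CREB response genes tested, 4 were higher, 0 were lower and 9 did not pass (median 0.20), namely Fosb, Dusp1, Nr4a1 (log2 difference 1.15, adjusted p = 0.000183 by edgeR) and Nr4a2 (0.73, 0.0323). Per1 and Per2, which these pathways can induce, had values of 0.071 and -0.53 on the same scale and did not pass. Of 14 glucocorticoid response genes, 1 was higher, 3 were lower and 10 did not pass, with a median of -0.48. Those lower were Zbtb16 (-1.54 ± 0.22, SE, adjusted p = 0.000865 by edgeR), Fkbp5 and Tsc22d3, the last 2 being on the rhythmic output list as well. The gene that rose was Dusp1 (0.81 ± 0.14, SE, adjusted p = 0.00238 by edgeR), which is on the CREB list as well. The summed level of the 14 genes was 2667 to 2760 TPM in controls and 3101 to 3939 TPM in ablated libraries. Within this sum the mean of Dusp1 went from 908 to 1847 TPM. That of Tsc22d3, the highest of the list in controls, fell from 1273 to 1007 TPM. Of 12 temperature response genes, 2 were higher (Hspb1 at 1.24 and Hsp90aa1 at 0.46), 0 were lower and 10 did not pass. The cold-inducible transcripts Cirbp (-0.15) and Rbm3 (0.27), which follow the daily rhythm of body temperature, were among the 10. The part of these stimuli in the values of the clock genes was not tested.

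**Figure D5:**
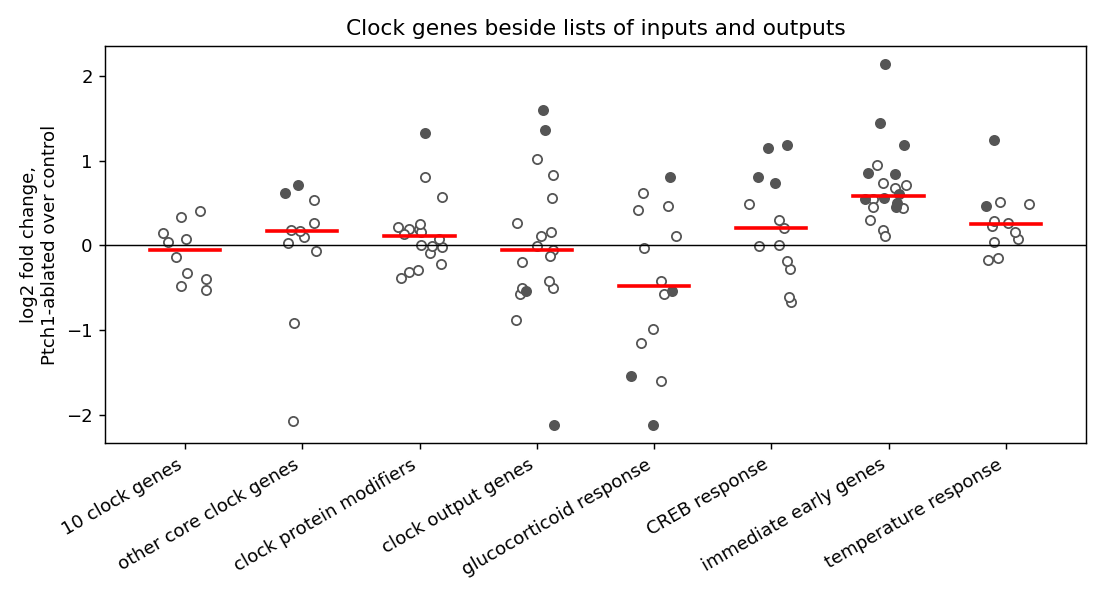
Log2 fold change (Ptch1-ablated over control, y axis) of the tested genes of each list, with points filled where the gene passed and red bars at the medians. The 10 clock genes lie between -0.53 and 0.40, with no filled point, beside immediate early genes that are all above 0.

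Transcripts used as markers of other cells were present in the sorted libraries. In bulk RNA fewer cells of a type and less RNA per cell cannot be told apart. Whether the keratocytes themselves expressed some of these markers was not tested. The study counts Acta2, listed here with mural cells, among fibroblast markers. Leukocyte markers summed to 4521 to 4823 TPM in controls and 6482 to 7186 TPM in ablated libraries, with 2 of 8 higher and 0 lower, most of the sum being Cd74. Mural cell markers summed to 464 to 534 and 899 to 957 TPM, with 3 of 7 higher and 0 lower, and vascular endothelial markers to 250 to 336 and 358 to 400 TPM, with 3 of 7 higher and 0 lower. Corneal epithelial markers were lower in sum, at 62.9 to 93.9 against 3.71 to 12.2 TPM, with 1 of 7 tested higher and 3 lower, and Krt12 at 0 counts in all controls. Corneal endothelial markers (5336 to 6142 and 3344 to 3628 TPM, 1 of 7 higher and 2 lower, mostly Aqp1), Schwann cell markers (131 to 150 and 195 to 214 TPM, 1 of 6 higher) and melanocyte markers (7.17 to 12.8 and 9.09 to 9.95 TPM, 0 of 4 tested passing) were compared as well. The lower endothelial sum followed Aqp1, whose mean went from 5736 to 3348 TPM. Of the 7 endothelial markers, 4 had log2 differences above 0 and 3 below. Of the 8 keratocyte markers, 7 were tested, 5 were lower and 0 higher. Of 13 mitotic genes tested 1 (Ccnb1) was higher and 0 were lower, and of 3 sex-linked genes tested Ddx3y was lower. Of 5 Hedgehog response genes 4 were higher. The part of these cells and of sex in the clock gene values was not tested.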

How the data were processed

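RNA was measured in 6 libraries of sorted keratocytes, 3 control and 3 Ptch1-ablated, grouped by their titles. The labels name TruSeq library preparation, whereas the study's methods state rRNA depletion and BGISEQ sequencing. The authors aligned reads with Bowtie2 (2.2.5) and quantified genes with RSEM (1.2.12). The submitters' processing notes name the build mm9, and annotation and strandedness were not given in the sources used here, so no gene positions were taken from the files. The authors deposited expected counts (not normalized, 18.6% not whole), TPM values (scaled per length and per library) and FPKM values, used in 1 alternative. The deposited group averages were not used. Promoter sequences (250 bases before a RefSeq start, GRCm38.p6) were matched by Entrez identifier.

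Expected counts were rounded. Genes kept by filterByExpr (13888, holding 99.9% of counts) were scaled by TMM and tested with edgeR's quasi-likelihood test (two-sided, no covariates). A gene passed at a Benjamini-Hochberg adjusted p of at most 0.05, and the fold threshold was 2. CPM are TMM-scaled. The 10 genes and all lists were chosen with earlier results of these data known. All members and other core clock genes are named, apart from a result not reported here, and of other lists genes that passed (at most the 4 smallest p), except that marker lists are given by counts and sums. Genes named beyond this (Csnk1d, Csnk1e, Wee1, Cirbp, Rbm3) were chosen after their values were seen. The test was checked on simulated counts in which 200 genes were changed 4-fold. Of these 174 were recovered, with 9 false calls. Smaller changes, such as those of the clock genes, were not simulated. Replicates are biological per the study's methods. Limits from 3 counts correspond to 0.121 to 0.158 CPM and cover counting error only. No libraries of a group agreed within sampling noise (chi-square per degree of freedom at least 35.1). Alternatives were DESeq2, RLE, upper quartile and no scaling beyond totals, no filter on counts, a filter at a mean of 50 counts, omission of libraries, a replicate block, and limma on log2(TPM + 1) and log2(TPM + 0.1). Computation used edgeR 4.0.16, DESeq2 1.42.0 and limma 3.58.1 under R 4.3.3.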

Additional observations from a re-analysis of the deposited data

How the results depend on the processing

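The count of clock genes past the threshold was 0 and became 1 with DESeq2, and 2 with library totals only and with both limma fits. With 1 library left out, it was 0 in each fit. The count of other loop genes was 2 and became 1 in the fit blocked on replicate number and when control replicate 1 and Ptch1-ablated replicate 2 were both omitted. With 1 library left out it ran from 1 to 2. No clock gene passed with a fold change of 2 in any alternative. With 1 library left out, the ratio differences ran from -0.87 to 0.054 for Nr1d1 over Arntl, -1.87 to -0.69 for Dbp over Arntl, -1.45 to -1.04 for Per2 over Arntl, -1.16 to -0.26 for Per3 over Arntl and -0.43 to 0.14 for Dbp over Cry1, moves that were below the SD of the controls but for most ratios above that of the ablated libraries. No gene that passed changed direction. With upper quartile scaling the log2 fold change of Per3 was -0.0085 and of Bhlhe41 -0.017. With library totals only, that of Cry2 was 0.030 and of Rora 0.11. From log2(TPM + 1) and log2(TPM + 0.1), limma gave 0.070 and 0.071 for Cry2 and 0.121 and 0.122 for Rora. With the replicate block Per3 was at -0.0064. Omitting 1 library, or that pair together (chosen after seeing the data), gave ranges of -0.83 to -0.31 for Per2, -0.097 to 0.30 for Clock, -0.087 to 0.15 for Per1, -0.25 to 0.19 for Per3, -0.14 to 0.25 for Arntl2, -0.20 to 0.037 for Rora, -0.17 to 0.59 for Nfil3 and -0.086 to 0.11 for Bhlhe41. Without control replicate 2 the count over all genes was 778, against 1178. The causes were not tested. Same-numbered libraries did not deviate together (r of -0.046, -0.049 and 0.039), so the numbers were not taken as pairs, and the replicate block changed no call of a clock gene and, among other loop genes, that of Hlf only. With 3 libraries a group, changes smaller than 2-fold could be missed in the 10 genes. The 95% interval of Per2 reached -1.06, so for this gene it also held a decrease slightly beyond 2-fold.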
